A study of Homo sapiens with 39 samples.

Results

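The comparison set HCT116 cells that produce HNF4A isoform 4 against HCT116 cells that produce HNF4A isoform 1, in 6 of the 39 RNA-seq libraries of the series. HCT116 is a human colorectal cancer line. The members were chosen by their labels, 3 libraries of the HNF4alpha4-GFP line and 3 of the HNF4alpha1-GFP line (a rule that uses no measured value). The host of both was the Flp-In T-REx derivative of HCT116, in which a construct is placed at 1 genomic site. Each line carried a single insertion of 1 human isoform with GFP at the C-terminus. Both had been kept in blasticidin S and hygromycin B, which were withdrawn at induction, and both received 2.5 µg/ml doxycycline for 48 h. The 3 parental libraries came from the host with no HNF4A construct and no GFP, kept in blasticidin and zeocin and given the same doxycycline. Each isoform was represented by 1 stable line, so the isoform and the line cannot be told apart. No label says that the 3 libraries of a line came from separate cultures, so the p-values below measure spread between libraries of the same line, which may be technical. For the limma tests, which fit a linear model to each gene, this spread was pooled over all 39 libraries in their 13 groups.

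HNF4A is a nuclear receptor that binds DNA as a homodimer and is known for switching on genes of hepatocytes and of the intestinal epithelium, among them genes of lipid handling, of the brush border and of cell junctions. By the standard isoform nomenclature, which the labels do not spell out, isoforms 1 to 6 start from promoter P1. Isoforms 4, 5 and 6 differ from 1, 2 and 3 by an additional exon, exon 1B, in the part of the transcript that encodes the N-terminal activation domain. Isoform 4 therefore corresponds to isoform 1, isoform 5 to isoform 2 (both with a short insertion near the C-terminus) and isoform 6 to isoform 3 (both with a shortened C-terminus).

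The extra exon is shown here because, by that nomenclature, it is what sets isoform 4 apart from isoform 1. In the GENCODE 29 annotation (GRCh38), transcript HNF4A-203 holds an exon at chr20:44402554-44402644 on the plus strand that protein-coding transcript HNF4A-204 lacks. It lies between the first P1 exon and the exon that follows it, is 91 bases long and has a GC content of 57.1%. The stretch of 20 bases on each side of the junction is in lower case and the exon itself in capitals.
HNF4A-204, without the exon: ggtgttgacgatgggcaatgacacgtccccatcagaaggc
HNF4A-203, with the exon: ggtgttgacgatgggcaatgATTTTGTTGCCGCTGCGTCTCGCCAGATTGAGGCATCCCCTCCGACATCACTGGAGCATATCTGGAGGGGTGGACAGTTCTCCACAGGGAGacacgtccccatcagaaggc
HNF4A-203 is annotated as a target of nonsense-mediated decay, and the exon's length leaves a remainder of 1 when divided by 3. That this exon is exon 1B rests on its position alone, and the sequences of the constructs were not used here.

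HNF4A mRNA was first compared with the labels. Expression was given as TPM, a level per transcript length scaled to a fixed sum per library. Each deposited table holds 12 rows named HNF4A1 to HNF4A12, and their sum was 31.9, 30.8 and 31.7 TPM in the parental libraries. It was 806, 776 and 765 TPM in isoform 1 and 872, 872 and 823 TPM in isoform 4. The isoform 4 libraries thus all lay above the isoform 1 libraries, at 856 ± 28.2 TPM against 782 ± 21.1 TPM (SD, n = 3 each), a ratio of 1.09. The exact two-sided permutation test gave p = 0.1, the smallest that 3 against 3 libraries allow, and after median-of-ratios scaling of the columns the ratio was 1.04 (exact permutation p = 0.3). In isoform 1 the row HNF4A1 held 804, 774 and 763 TPM of that sum. In the table of isoform 4 the row HNF4A4 held 867, 869 and 820 TPM. However, that row stands where the other tables, except that of isoform 5, have the name HNF4A5: the names HNF4A4 and HNF4A5 are exchanged between these tables. Whether the isoform 4 line produces form 4 or form 5 therefore depends on which naming is right, which was not tested. Form 5 would also differ from isoform 1 by the short insertion near the C-terminus. The isoform 4 libraries had traces in HNF4A1 (0.0870, 0.0747 and 0 TPM) and at most 7.18e-05 TPM in HNF4A2. Isoform 5 libraries had 0, 0.0775 and 0.0817 TPM in HNF4A2 and at most 3.09e-06 TPM in HNF4A1. Such traces need not match the form, as isoform 1 had a mean of 1.06 TPM in HNF4A2. Forms 4 and 5 both carry exon 1B, and the line is called isoform 4 by its label throughout.

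The libraries were alike in their general measures. Isoform 1 and isoform 4 libraries had between 28159 and 29098 rows above 0 TPM, and within each line every pair of libraries had a correlation of at least 0.9907 across rows on the log2(TPM + 1) scale. TPM columns sum to nearly the same total in every library, so the read depth behind each value is unknown. The median difference of all tested genes was 0.06 on the log2 scale for isoform 4 minus isoform 1. Median-of-ratios scaling brought it to -0.00, and it moved the median of isoform 1 minus parental from -0.11 to 0.02 and that of isoform 5 minus isoform 2 from 0.10 to -0.02. Of the marker lists of fibroblasts, endothelial and immune cells, 1 of 10, 1 of 7 and 2 of 10 genes had a mean of at least 1 TPM. The summed fibroblast markers ranged from 12.7 to 14.6 TPM in isoform 1 and from 10.8 to 16.9 TPM in isoform 4, most of it COL1A1, whose difference of -0.10 did not pass the test and was 0.05 without the library labelled A4N3. POSTN and CD3E were at 0 in isoform 1, and DCN, VWF, CDH5 and PTPRC were under 1 TPM in all 3 groups. The markers called between the lines were PECAM1 and CD68, and their part in other results was not tested. PECAM1, an adhesion molecule, was at 6.43, 4.79 and 6.03 TPM in isoform 1 against 2.60, 1.72 and 1.81 TPM in isoform 4. CD68, a lysosomal glycoprotein, was at 32.7, 34.7 and 31.8 TPM against 7.10, 8.28 and 8.02 TPM.

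Cells with isoform 4 had less mRNA of many genes of lipid handling, of the brush border and of cell junctions than cells with isoform 1, and a smaller set of genes was higher. Of 15002 genes tested, 674 (4.49%) were called, which means a limma adjusted p under 0.05 and a difference of at least 1 on the log2(TPM + 1) scale. Of these, 414 (2.76% of the tested genes) were lower in isoform 4 and 260 (1.73%) were higher. The groups did not overlap in 664 of the 674 called genes (98.5%), against 8941 of all 15002 (59.6%). Protein-coding genes made up 543 of the calls, 334 lower and 209 higher. This was 4.49% of the 12105 protein-coding genes tested, the same share as among all tested genes. The falls were larger than the rises: the median was -1.37 among the genes called lower and 1.18 among those called higher, and 88 falls but 13 rises reached 2. In bulk RNA, fewer cells with a gene switched on and less of its RNA per cell cannot be told apart. Adding 1 to every value shrinks the differences of weakly expressed genes. With no minimum difference, 55.1% of all tested genes had a limma adjusted p under 0.05, 33.4% as higher and 21.8% as lower, and 59.4% had an unadjusted p under 0.05.

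**Figure D1:**
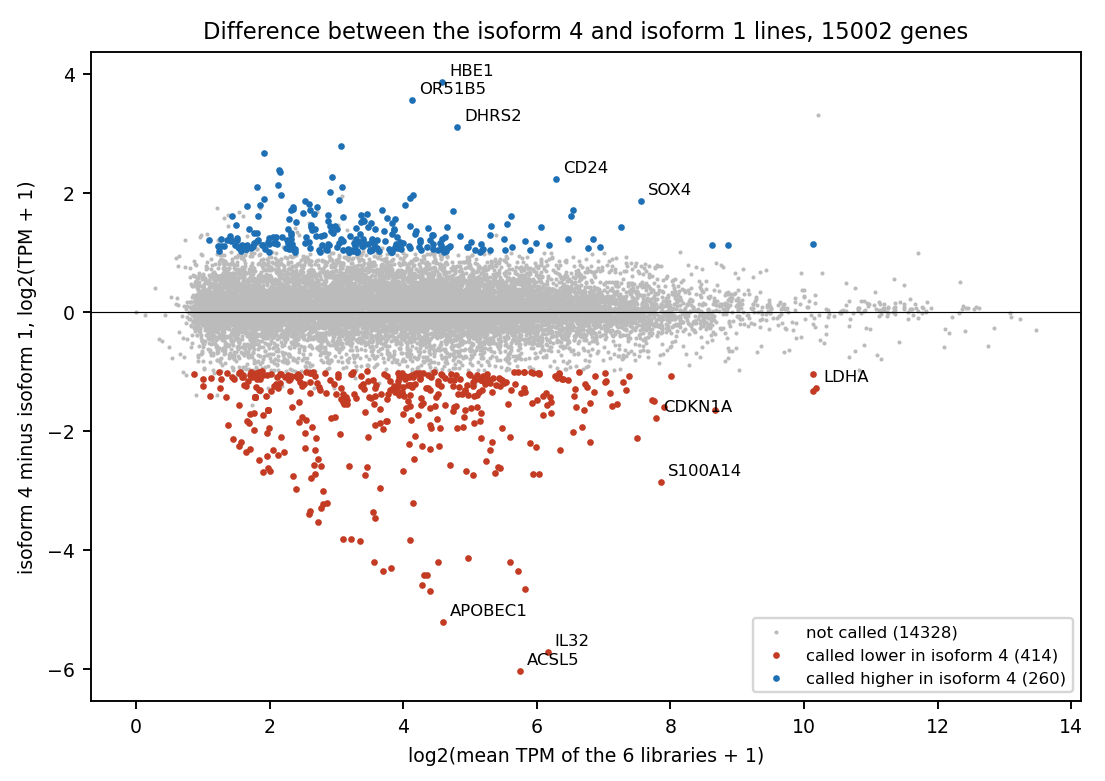
Each point is 1 of 15002 genes: the horizontal axis is the mean level of the 6 libraries as log2(TPM + 1) and the vertical axis the fitted isoform 4 minus isoform 1 difference on that scale. Red points are the 414 genes called lower and blue points the 260 called higher. The grey point at 3.30 is the pseudogene row RPL21P16, whose standard error of 1.91 kept it from being called (limma adjusted p = 0.146).

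The direction of the calls can be read against the parental libraries, as values side by side, since both lines share that control. The genes called lower had a median of 22.03 TPM in isoform 1, 6.38 TPM in isoform 4 and 5.85 TPM in the parental cells. The genes called higher had a median of 4.85 TPM in isoform 1, 12.2 TPM in isoform 4 and 10.7 TPM in the parental cells. For the typical called gene, then, isoform 4 lay near the parental level and isoform 1 away from it. Isoform 1 differed from the parental cells in 677 genes (4.51%), of which 410 were higher (2.73%) and 267 lower (1.78%), and isoform 4 in 80 (0.533%), of which 33 were higher (0.22%) and 47 lower (0.313%). After median-of-ratios scaling the split for isoform 1 was 521 higher and 164 lower, but with a pseudocount of 0.1 TPM it was 506 and 517, and with no minimum difference 2976 and 5805, so which direction held more genes depended on the setting.

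The largest fall was in ACSL5, an acyl-CoA synthetase that activates long-chain fatty acids (chr10:112374018-112428380, GRCh38, plus strand). It was at 110, 93.9 and 111 TPM in isoform 1 and at 0.627, 0.619 and 0.563 TPM in isoform 4, beside 0.526, 0.640 and 0.485 TPM in the parental libraries. The isoform 4 libraries lay within the parental range, and the difference between the lines was -6.04 ± 0.11 (SE) on the log2 scale (limma adjusted p = 5.0e-27). IL32, a cytokine of epithelial and immune cells, was at 148, 122 and 148 TPM in isoform 1 against 2.50, 1.215 and 1.398 TPM in isoform 4 and 0.446, 0.524 and 0.304 TPM in the parental cells. Here isoform 4 remained above the parental libraries, and the difference between the lines was -5.72 ± 0.154. APOBEC1, the cytidine deaminase that edits apolipoprotein B mRNA in the intestine, was at 48.0, 41.8 and 48.2 TPM in isoform 1. In isoform 4 it was at 0.393, 0.453 and 0 TPM and in the parental libraries at 0, 0.121 and 0 TPM, so of these groups only isoform 1 had more than traces of it.

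Further genes of absorptive epithelium and liver were among the 15 largest falls. VIL1 encodes villin, the actin-bundling protein of microvilli. It was at 44.2, 38.2 and 45.6 TPM in isoform 1, at 1.42, 1.33 and 1.33 TPM in isoform 4 and at 0.482, 0.683 and 0.497 TPM in the parental libraries, a difference between the lines of -4.20 ± 0.165. BAAT, which conjugates bile acids to amino acids, was at 29.7, 21.6 and 25.9 TPM in isoform 1 and at 0.253, 0.460 and 0.287 TPM in isoform 4. CREB3L3, a transcription factor of liver and gut lipid metabolism, was at 43.3, 36.6 and 33.8 TPM against 1.08, 0.789 and 0.579 TPM. In none of these did a library of one line reach the range of the other, which was a condition for the 15 listed falls. CYP17A1, a steroid hydroxylase, had 27.9, 17.1 and 26.6 TPM in isoform 1 against 0.258, 0.122 and 0.174 TPM in isoform 4, which was its parental level of 0.113, 0.191 and 0.188 TPM. HKDC1, a hexokinase family member, had a mean of 21.3 TPM in isoform 1 and 0.206 TPM in isoform 4. The other falls of this size were in MYO15B (107 against 3.32 TPM), SDCBP2 (36.3 against 0.530 TPM), PRAP1 (37.1 against 0.762 TPM) and CLRN3 (18.0 against 0.317 TPM). These 4 had differences between -4.66 and -3.85.

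A few genes rose above the parental level with both isoforms, but much further with isoform 1. CIDEC, a protein that enlarges lipid droplets, was at 0.0344, 0.125 and 0.0643 TPM in the parental libraries, at 99.6, 86.0 and 87.7 TPM in isoform 1 and at 4.31, 4.38 and 3.26 TPM in isoform 4. C11orf86 showed the same order, with parental values of 0.300, 0.139 and 0.213 TPM, isoform 1 values of 112, 92.3 and 92.1 TPM and isoform 4 values of 4.89, 3.05 and 3.77 TPM. S100A14, a calcium-binding protein of epithelia, was at 15.2, 17.3 and 17.2 TPM in the parental libraries, 432, 372 and 420 TPM in isoform 1 and 60.3, 54.8 and 49.6 TPM in isoform 4. TRIM15, an E3 ubiquitin ligase family member, had means of 3.21, 56.4 and 7.55 TPM in that order. In SPARC, a secreted matrix protein, both lines lay far below the parental 14.97, 16.3 and 20.4 TPM. Isoform 1 had 0.129, 0.119 and 0.187 TPM and isoform 4 had 0.917, 1.01 and 0.904 TPM, so these groups did not overlap. The difference of 0.76 ± 0.338 between the lines did not pass the test (limma adjusted p = 0.0557). That SE uses the spread of all 39 libraries, among them isoform 3 at 7.27, 0.326 and 0.426 TPM. With a pseudocount of 0.1 TPM the difference reached 2.10 and was called. Pseudogene, clone, antisense, repeated and most short RNA names were left out of the following count, and no p-value was required. By it, 26 genes differed by at least 1 from the parental cells in both lines in 1 direction, 15 upward and 11 downward. Both differences share the parental libraries, so the count is only a description.

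**Figure D2:**
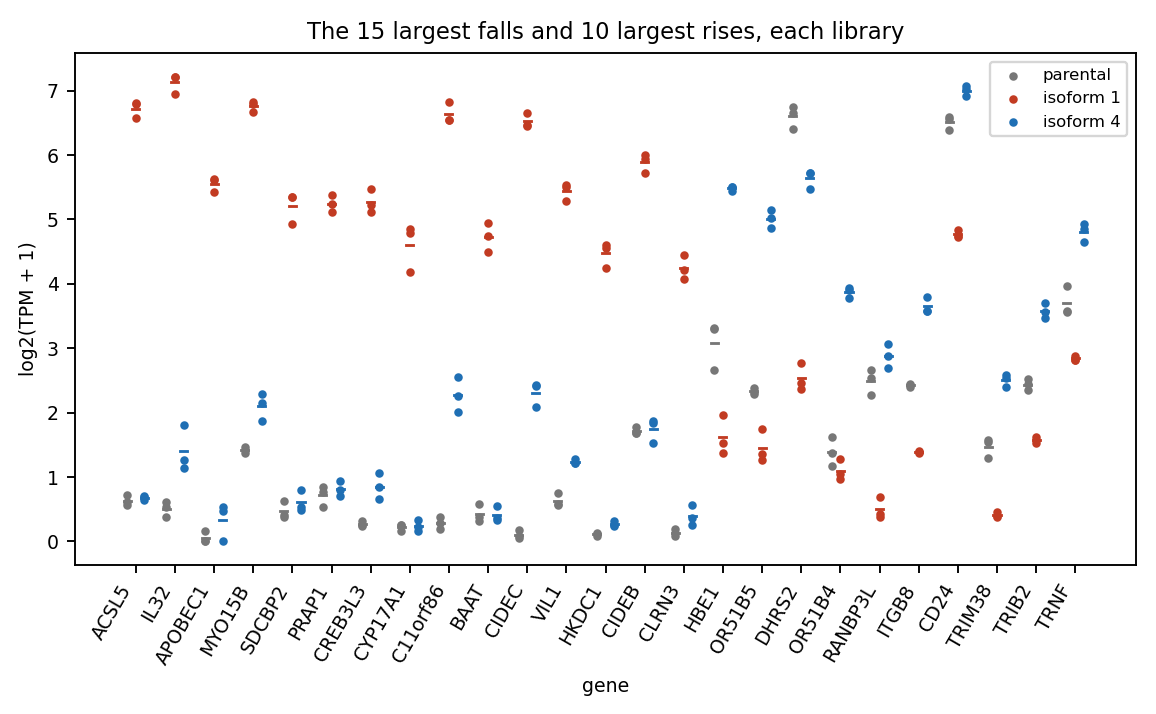
Levels of the 15 genes with the largest falls (left) and the 10 with the largest rises (right), as log2(TPM + 1) on the vertical axis. Each point is 1 library (grey parental, red isoform 1, blue isoform 4) and each dash a group mean. In the left group the blue points lie close to the grey ones, with IL32, CIDEC and C11orf86 furthest above them, and in the right group the red points lie below both other groups or, for OR51B4, beside the grey ones.

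Among the rises, the largest was in HBE1, the embryonic epsilon globin chain of the beta-globin cluster (chr11:5268345-5505652, GRCh38, where the annotated gene overlaps OR51B5). HBE1 was at 2.91, 1.88 and 1.59 TPM in isoform 1 and at 44.6, 44.4 and 42.4 TPM in isoform 4. The parental libraries lay between them at 5.31, 8.92 and 8.81 TPM, so the lines moved to opposite sides of the parental level, and the difference between the lines was 3.86 ± 0.183 (limma adjusted p = 3.9e-17). The olfactory receptor genes OR51B5 and OR51B4 of the same cluster were higher too, at means of 31.3 against 1.77 TPM and 13.7 against 1.15 TPM. Because OR51B5 and HBE1 overlap, their reads cannot be fully told apart. OR51B4 also lies within the annotated span of HBE1, on the same strand, and whether they share reads was not tested. DHRS2, a short-chain dehydrogenase, was at 83.9, 99.3 and 106 TPM in the parental libraries, at 51.9, 43.4 and 51.8 TPM in isoform 4 and at 5.85, 4.53 and 4.15 TPM in isoform 1. Both lines lay below the parental libraries with no overlap. The isoform 4 minus parental difference of -0.96 ± 0.407 did not pass the test (limma adjusted p = 0.108). That SE uses the spread of all 39 libraries, among them isoform 3 at 55.4, 5.42 and 5.21 TPM. The authors' deposited log2 fold change for isoform 4 against parental was -0.84 ± 0.074 (SE). ITGB8, an integrin beta subunit, was at 1.62, 1.58 and 1.63 TPM in isoform 1, 10.9, 12.9 and 10.9 TPM in isoform 4 and 4.45, 4.41 and 4.30 TPM in the parental libraries. CD24, a surface glycoprotein of epithelial progenitors with near-identical copies in the genome, was at a mean of 26.3 TPM in isoform 1, 127 TPM in isoform 4 and 90.6 TPM in the parental cells. TRIM38, TRIB2 and RANBP3L had differences of 2.10, 2.01 and 2.38. The transfer RNA row TRNF was also called (27.1 against 6.17 TPM, a difference of 1.97 ± 0.452), but a poly(A) library is not designed to capture such short RNAs.

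For the gene lists, counts are given beside the 2.76% called lower and 1.73% called higher among all tested genes, and medians beside the overall 0.06. The lists came from general knowledge and were drawn up with earlier results of these data known. Many members had too little RNA to be tested, and a gene that reached 1 TPM only through one line had to differ. The list of HNF4A targets of liver and gut is an example. Only 5 of its 21 genes were tested, and 4 of them were called lower: VIL1, LGALS4, APOA1 and F10. Over all 21 genes without a minimum level the median difference was -0.03. LGALS4, an intestinal galectin, was at 12.1, 10.1 and 12.3 TPM in isoform 1 and at 0.483, 0.378 and 0.137 TPM in isoform 4. APOA1, the main protein of high-density lipoprotein, was at 6.75, 4.75 and 5.14 TPM against 0.252, 0.0373 and 0.373 TPM. F10, coagulation factor X, was at 39, 34.7 and 35.3 TPM against 10.0, 8.49 and 7.50 TPM and a parental 9.59, 8.60 and 9.58 TPM. In each of these 4 genes isoform 4 overlapped the parental libraries or, for VIL1, lay slightly above them. The fifth, MTTP, had a difference of -0.03.

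Genes at several steps of lipid metabolism were lower in isoform 4. For lipid droplet and acyl-CoA synthesis, 4 of 20 tested genes were called lower and none higher, with a list median of -0.12. The genes called were ACSL5, CIDEC, CIDEB and AGPAT2. Without a minimum difference, 9 of the 20 were lower and 5 higher at a limma adjusted p under 0.05, against 21.8% and 33.4% of all tested genes. CIDEB, a lipid droplet protein of liver and gut, was at 60.4, 51.96 and 63.2 TPM in isoform 1 and 2.65, 2.57 and 1.87 TPM in isoform 4. AGPAT2, an acyltransferase of triglyceride synthesis, was at 243, 201 and 210 TPM against 74.6, 74.6 and 70.0 TPM. In fatty acid oxidation and ketogenesis 4 of 23 genes were called lower and the median was -0.53. Without a minimum difference, 18 of the 23 were lower and 3 higher at a limma adjusted p under 0.05, against 21.8% and 33.4% of all tested genes. ACAA2, the mitochondrial thiolase of the pathway's last step, was at 156, 145 and 172 TPM in isoform 1 and 48.8, 50.4 and 48.1 TPM in isoform 4, beside 55.2, 56.3 and 56.6 TPM in the parental cells. SLC25A20, which carries acylcarnitines into mitochondria, was at 47.6, 47.1 and 52.3 TPM against 17.0, 18.8 and 17.8 TPM. HADHB and ACAA1, further thiolases, had differences of -1.34 and -1.13. The list of apolipoproteins and lipoprotein assembly had 1 of 9 genes called lower, APOA1, and a median of -0.08.

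In cholesterol synthesis none of 27 genes was called by limma in either direction, and the median was -0.03. Without a minimum difference 9 of the 27 were lower and 4 higher, against 21.8% and 33.4% of all tested genes, and 15 had an unadjusted p under 0.05, against 59.4%. SCD, the stearoyl-CoA desaturase, was at 582, 625 and 647 TPM in isoform 1 and 515, 541 and 510 TPM in isoform 4, a difference of -0.24. FDFT1, squalene synthase, was at 429, 451 and 456 TPM against 429, 464 and 459 TPM, so its groups overlapped. Its difference of 0.02 was -0.05 after scaling. In the list of glycolysis and pyruvate genes, 3 of 30 were called lower and 1 higher, with a median of -0.01. SLC2A1, the glucose transporter GLUT1, was at 97.8, 85.0 and 84.8 TPM in isoform 1 against 32.1, 28.2 and 29.5 TPM in isoform 4. LDHA, lactate dehydrogenase A, which has processed copies in the genome, was at 1646, 1626 and 1680 TPM against 657, 698 and 676 TPM, beside a parental mean of 625 TPM. PC, pyruvate carboxylase, fell by 1.08 on the log2 scale. ENO2, a neuronal enolase, went the other way, at 11.3, 12.0 and 11.5 TPM against 32.4, 28.8 and 27.9 TPM.

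Several structural genes of the epithelial surface were lower in isoform 4. Of 17 brush border and microvillus genes 5 were called lower and none higher, with a median of -0.73. Besides VIL1 these included MISP, an actin-bundling protein, at 77.0, 65.2 and 74.7 TPM in isoform 1 against 11.3, 10.0 and 11.7 TPM in isoform 4. SLC9A3R1, the scaffold NHERF1, was at 371, 342 and 362 TPM against 115, 116 and 121 TPM. CALML4, a light chain of the intermicrovillar adhesion complex, was at a mean of 27.7 TPM against 7.61 TPM. Among enterocyte transporters and digestive enzymes 2 of 7 genes were called lower: ANPEP, aminopeptidase N, at 9.00, 8.73 and 7.34 TPM against 0.241, 0.116 and 0.194 TPM, and the efflux pump ABCG2, at 21.1, 20.6 and 22.4 TPM against 1.85, 2.19 and 1.55 TPM. The median of the 7 was -0.51, but 22 of the 29 listed genes were below the minimum level, and over all 29 the median was -0.01.

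Junction genes showed smaller but widespread differences. Of 25 genes of tight junction and epithelial adhesion, 6 were called lower, the median was -0.56, and 20 of the 25 were lower and none higher without a minimum difference, against 21.8% and 33.4% of all tested genes. CDH1, E-cadherin, was at 60.03, 53.6 and 61.0 TPM in isoform 1 and 29.4, 25.5 and 24.6 TPM in isoform 4, beside 29.2, 30.6 and 33.1 TPM in the parental libraries. TJP3, the scaffold ZO-3, was at 55.1, 44.9 and 56.5 TPM against 25.8, 21.6 and 21.9 TPM, and here isoform 4 stayed above the parental 13.9, 13.05 and 15.3 TPM. CLDN23, a claudin, was at 12.9, 11.1 and 13.04 TPM in isoform 1 and 2.46, 2.26 and 1.93 TPM in isoform 4. PARD6B, a polarity protein, was at 27.8, 26.9 and 29.8 TPM against 8.81, 9.36 and 8.81 TPM. For CLDN23 and PARD6B the isoform 4 libraries lay below the parental ones, at 3.68, 4.24 and 3.78 TPM and at 11.8, 12.96 and 13.2 TPM. In the short list of epithelial identity 3 of 7 genes were called lower, LGALS4, CDH1 and KRT18, and the median was -0.98, or -0.13 over all 12 genes with no minimum level. KRT18, a keratin with many processed copies, was at 1638, 1493 and 1690 TPM against 618, 613 and 681 TPM.

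Of 21 genes of mesenchymal state and matrix 3 were called, all lower in isoform 4, with a median of -0.26, or -0.07 with no minimum level. CAV1, the coat protein of caveolae, was at 194, 199 and 195 TPM in isoform 1 and 71.3, 76.8 and 76.9 TPM in isoform 4. Its parental level was 214, 214 and 204 TPM, so this difference came with isoform 4 below the parental cells and isoform 1 near them. CAV2, its partner and neighbour on chromosome 7, showed the same, at 98.5, 107 and 114 TPM in isoform 1, 36.1, 40.8 and 38.96 TPM in isoform 4 and 98.1, 100 and 91.0 TPM in the parental libraries. TIMP2, a metalloproteinase inhibitor, was at a mean of 135 TPM in isoform 1 and 54.3 TPM in isoform 4, where it matched the parental 54.4 TPM. In coagulation and plasminogen activation 5 of 12 genes were called lower and the median was -0.76, but over all 30 genes in the table, with no minimum level, it was -0.00 (13 above and 15 below 0). PLAU, urokinase, was at 103, 95.1 and 96.0 TPM against 35.2, 36.3 and 36.1 TPM and, like CAV1, lay below the parental 77.5, 93.9 and 87.1 TPM in isoform 4. PLAUR, its receptor, was at 50.6, 47.5 and 45.8 TPM against 15.6, 14.8 and 14.3 TPM, and F2RL1, a protease-activated receptor, had a difference of -1.48.

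Proliferation genes were higher in isoform 4 by small, even amounts. All 36 genes of the DNA replication and S phase list were higher at a limma adjusted p under 0.05 with no minimum difference (33.4% of all tested genes were), with a median of 0.78, or 0.71 after median-of-ratios scaling. At a minimum difference of 1 only 2 were called. MCM2, a subunit of the replicative helicase, was at 70.8, 71.6 and 65.3 TPM in isoform 1 and 140, 149 and 150 TPM in isoform 4, and its difference of 1.07 was 0.9994 after scaling, just under the minimum. ORC1, a subunit of the origin recognition complex, was at 14.2, 15.1 and 14.04 TPM against 30.1, 32.6 and 31.5 TPM. Both genes were at the parental level in isoform 4, 153, 157 and 154 TPM for MCM2 and 32.4, 33.6 and 29.7 TPM for ORC1. The summed level of the 36 genes ranged from 2349 to 2606 TPM in isoform 1 and from 3807 to 4243 TPM in isoform 4. For mitosis and G2/M 34 of 36 genes were higher by the same test (34 at an unadjusted p under 0.05), none was lower, and none reached a difference of 1. The median was 0.57. BUB3 was at 250, 266 and 256 TPM in isoform 1 against 308, 338 and 345 TPM in isoform 4, and CDC20 at 206, 221 and 189 TPM against 238, 264 and 280 TPM. In the p53 target list 1 of 30 genes was called: CDKN1A, the cyclin-dependent kinase inhibitor p21, at 363, 331 and 331 TPM in isoform 1 against 96.1, 101 and 96.1 TPM in isoform 4. The parental libraries had 106, 105 and 100 TPM, and the list median was 0.12.

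**Figure D3:**
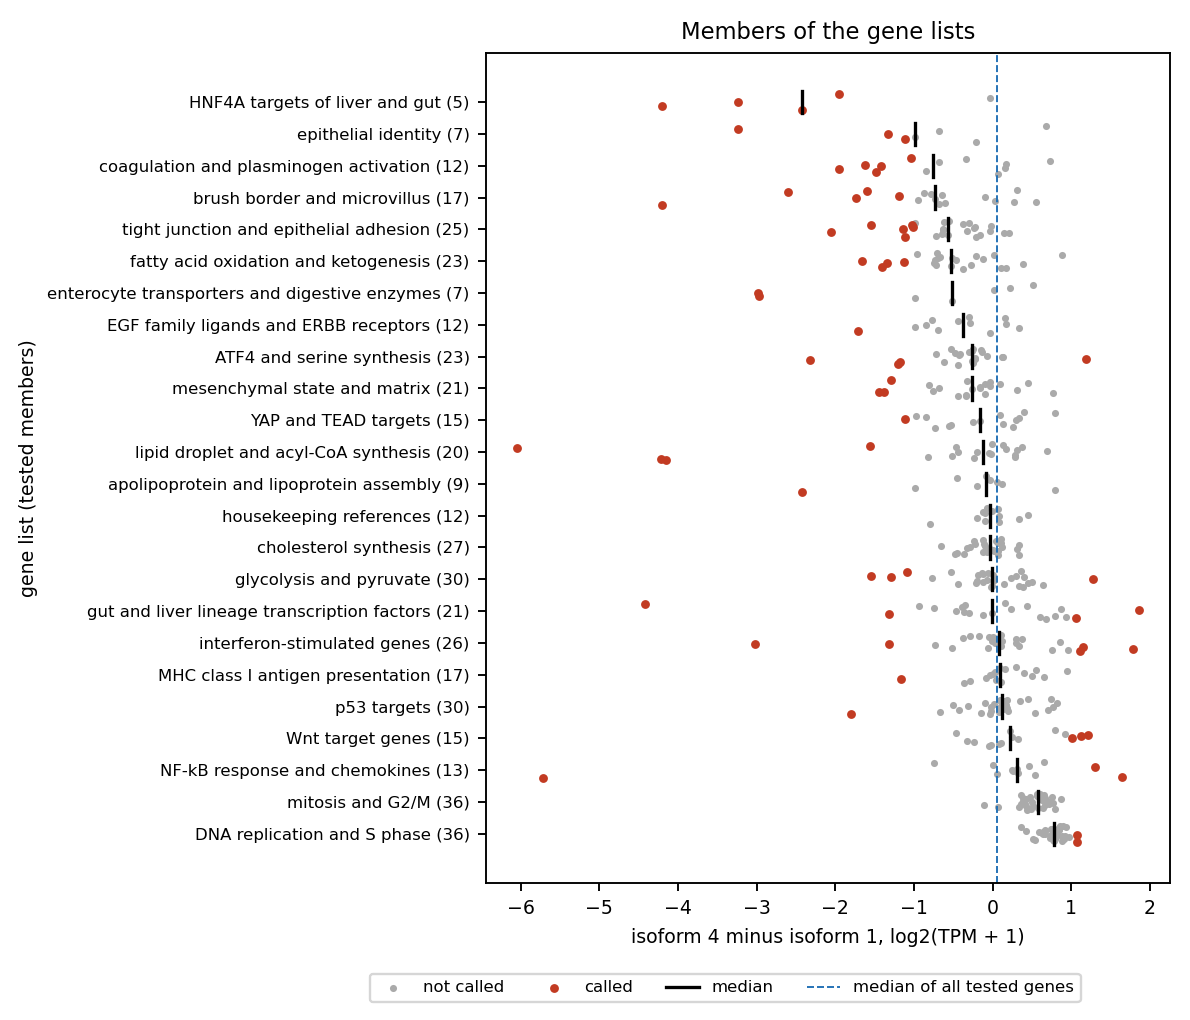
Fitted isoform 4 minus isoform 1 differences (horizontal axis, log2(TPM + 1) scale) of the tested members of each gene list with at least 5 tested members, 1 row per list with the number tested in brackets. Red points are called, grey points are not, black bars are list medians and the dashed line is the median of all tested genes at 0.06. Members of the proliferation lists form a tight group right of that line. Some lists, such as lipid droplet and acyl-CoA synthesis, hold a few large falls beside many members near it. In others, such as brush border and microvillus, the median itself lies well left of it, and some, such as cholesterol synthesis, hold no called member.

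Transcription factors and signalling lists were mixed. Among gut and liver lineage transcription factors 2 of 21 were called lower and 2 higher, with a median of -0.01. KLF4, a factor of differentiated epithelium, was at 44.5, 38.1 and 44.0 TPM in isoform 1 and 16.8, 16.2 and 16.0 TPM in isoform 4. SOX4, a factor of progenitor cells, was at 73.6, 81.8 and 86.4 TPM against 302, 306 and 275 TPM, which was above the parental 210, 206 and 203 TPM. FOXA1, a pioneer factor, was at 1.66, 2.36 and 2.16 TPM against 5.09, 5.89 and 5.16 TPM, and its difference of 1.06 was 0.97 without replicate 1 of isoform 1. Wnt target genes had 3 of 15 called higher and none lower, with a median of 0.22, or 0.03 with no minimum level. DKK1, a secreted Wnt inhibitor, was at 270, 301 and 308 TPM against 621, 635 and 659 TPM, with the parental 429, 422 and 408 TPM in between. EPHB2, a receptor of crypt base cells, was at a mean of 6.32 TPM against 15.9 TPM. NOTUM, a Wnt deacylase, was at 5.79, 5.94 and 4.71 TPM against 12.8, 12.5 and 10.9 TPM. Its difference of 1.01 fell to 0.95 after scaling, to 0.93 without replicate 3 of isoform 1, and to 0.97 and 0.99 without the libraries labelled A4N1 and A4N2, each under the minimum. The YAP and TEAD target list had 1 of 15 genes called, AJUBA, with a difference of -1.11 and a call that was lost without replicate 3 of isoform 1, at -0.98, and the list median was -0.16, or 0.01 with no minimum level. Of the EGF family ligands and ERBB receptors 1 of 12 was called: AREG, amphiregulin, at 120, 101 and 116 TPM against 34.2, 34.8 and 32.2 TPM, with a list median of -0.37.

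Immune-related genes also moved in both directions. In the interferon-stimulated list 3 of 26 were called higher and 2 lower, and the median of 0.08 was close to that of all genes. OAS1, which senses double-stranded RNA, was at 11.9, 11.0 and 11.1 TPM in isoform 1 and 0.660, 0.585 and 0.336 TPM in isoform 4. With parental values of 3.65, 4.24 and 4.13 TPM, the lines lay on opposite sides of the host. ISG20, an exonuclease, was at a mean of 18.8 TPM against 6.97 TPM. IFI6, a mitochondrial protein, went the other way, at 6.90, 6.38 and 5.73 TPM against 24.3, 25.4 and 23.2 TPM, as did IFITM1 with a difference of 1.16. Of 13 genes of NF-kB response and chemokines 2 were called higher and 1, IL32, lower, with a median of 0.31, or 0.06 with no minimum level. ICAM1, an adhesion molecule, was at 4.46, 3.96 and 4.45 TPM against 15.2, 16.8 and 14.7 TPM, above the parental 5.89, 6.68 and 5.80 TPM. TNFAIP2 was at 9.72, 9.19 and 9.26 TPM against 25.97, 24.3 and 24.0 TPM, near the parental mean of 22.2 TPM. In MHC class I antigen presentation only HLA-F of 17 genes was called, at a mean of 18.3 TPM in isoform 1 against 7.67 TPM in isoform 4, and the median was 0.10.

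In the list of ATF4 and serine synthesis genes 3 of 23 were called lower and 1 higher, with a median of -0.26. CHAC1, which degrades glutathione, was at 42.5, 13.8 and 48.0 TPM in isoform 1 and 8.03, 4.43 and 4.23 TPM in isoform 4. Replicate 2 of isoform 1 had less than the other replicates here, and likewise for ATF3, a stress-induced factor, at 61.7, 41.4 and 59.9 TPM against 22.95, 22.9 and 22.2 TPM. The groups still did not overlap in either gene. DDIT4, an inhibitor of mTORC1, had a difference of -1.18. PHGDH, the first enzyme of serine synthesis, was the higher one, at 36.2, 29.1 and 35.8 TPM against 80.6, 78.9 and 73.8 TPM. None of the 12 housekeeping reference genes was called by limma, 6 had an unadjusted p under 0.05 (59.4% of all tested genes did), and the median was -0.04. RPLP0, a ribosomal protein with processed copies, was at 3486, 3312 and 3380 TPM in isoform 1 and 3627, 3527 and 3635 TPM in isoform 4. ACTB, beta-actin, was less even, at 2985, 2785 and 2869 TPM against 1536, 1694 and 1755 TPM, a difference of -0.79 that did not reach the minimum of 1 and had a limma adjusted p of 2.9e-13.

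FCGRT, the neonatal Fc receptor of epithelia, was another gene with isoform 4 below the host: 17.9, 17.4 and 18.0 TPM in isoform 1, 2.24, 1.85 and 1.402 TPM in isoform 4 and 9.81, 11.2 and 12.0 TPM in the parental libraries. CAV1, CAV2, PLAU, OAS1 and FCGRT were called lower in isoform 4 than in the parental cells, with differences of -1.48, -1.30, -1.24, -1.72 and -2.09. Isoform 1 minus parental was -0.10, 0.14, 0.19, 1.30 and 0.64 for the same genes, of which that of OAS1 was called. Levels below the parental means of 211, 96.5, 86.2, 4.00 and 11.0 TPM were not particular to isoform 4. In the same gene order, isoform 5 had means of 81.3, 42.3, 30.5, 1.41 and 8.18 TPM. Isoform 6 had 141, 67.3, 33.7, 1.32 and 7.12 TPM. The differences of isoforms 5 and 6 from the parental cells were not tested. The other named genes called lower in isoform 4 than in the parental cells were KRTAP3-1 (-1.34), the transfer RNA row TRS-GCT5-1 (-1.88), CAVIN2 (-2.09) and SPARC (-3.22), and of these CAVIN2 and SPARC were not called between the lines. The authors' deposited tables, which compare each line with the parental cells, gave CAV1 a log2 fold change of 0.04 in isoform 1 and -1.397 in isoform 4. In the authors' deposited tables ACSL5 had 7.46 in isoform 1 and 0.08 in isoform 4, MCM2 had -1.01 and -0.03, and HBE1 had -1.48 and 2.06. Other named genes were less alike. The row TRS-GCT5-1 had -0.05 in isoform 4 there, with no adjusted p given, and SULT1A3 had 0.38 in isoform 1 there but 3.41 here. The authors' fold changes come from their own method, so their sizes are not directly comparable with the differences on the log2(TPM + 1) scale.

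**Figure D4:**
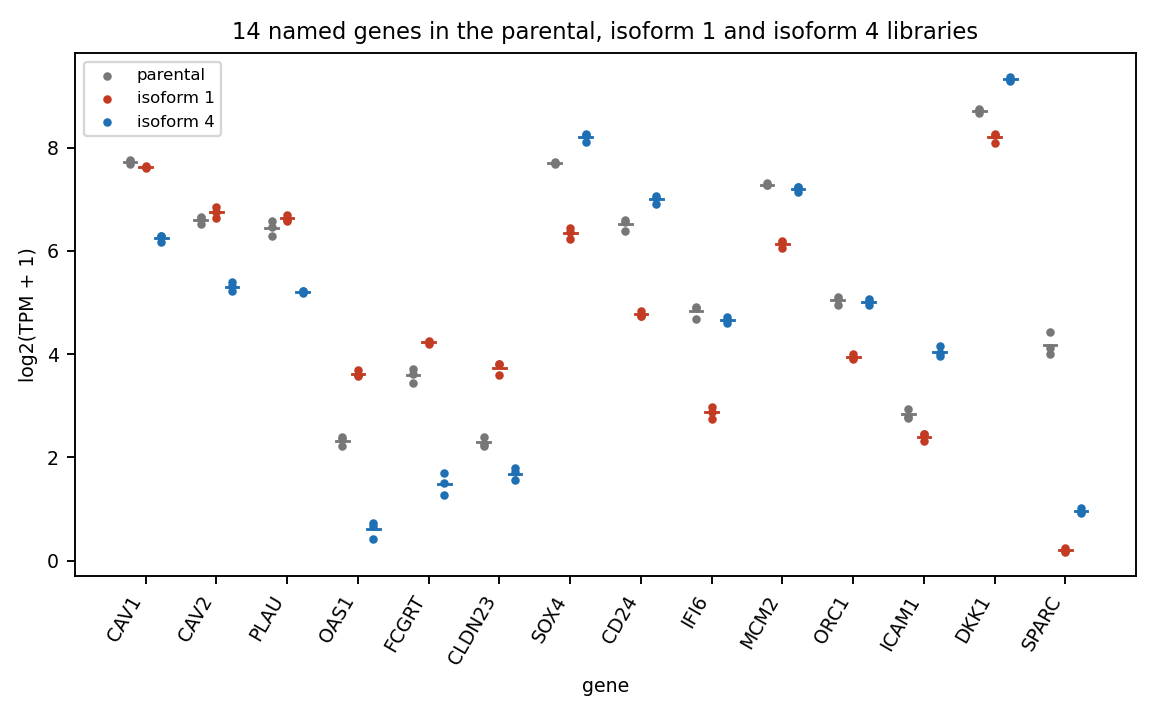
Levels of 14 named genes, picked after their values were seen, as log2(TPM + 1) on the vertical axis. Each point is 1 library (grey parental, red isoform 1, blue isoform 4) and each dash a group mean. CAV1, CAV2, PLAU, OAS1, FCGRT and CLDN23 have isoform 4 below the parental libraries, MCM2 and ORC1 have isoform 1 below them, and in SPARC both lines are below them.

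The pairs isoform 5 against isoform 2 and isoform 6 against isoform 3 carry the same N-terminal change and share no library with the comparison of isoform 4 and isoform 1. Their HNF4A mRNA was less evenly matched. It had means of 852 TPM in isoform 5 against 614 TPM in isoform 2, and 1071 TPM in isoform 6 against 671 TPM in isoform 3. Isoform 4 had 856 TPM against 782 TPM in isoform 1. The part of these levels in differences between pairs was not tested. Isoform 5 minus isoform 2 gave 604 called genes (4.03%), 301 higher (2.01%) and 303 lower (2.02%). Isoform 6 minus isoform 3 gave 105 (0.7%), 13 higher (0.0867%) and 92 lower (0.613%). With scaling the split of isoform 5 minus isoform 2 was 231 higher and 378 lower, and with a pseudocount of 0.1 TPM it was 536 higher and 368 lower. Replicate 1 of isoform 3 stood apart, with an HNF4A level of 407 TPM while the other replicates had 833 and 772 TPM, and without it the last pair gave 147 called genes (26 higher, 121 lower). Of the 414 genes called lower in isoform 4, 252 (60.9%) were also called lower in isoform 5 minus isoform 2, which is 83.2% of that pair's falls, and 2, RERG and KRTAP3-1, were called higher there. Of the 260 called higher, 142 (54.6%) were also called higher, 47.2% of that pair's rises. In isoform 6 minus isoform 3, 84 of the falls (20.3%) and 5 of the rises (1.92%) were called in the same direction, 91.3% and 38.5% of that pair's falls and rises. Over all 15002 genes Pearson's r between differences was 0.79 with the first of these pairs and 0.65 with the other, as a description across genes, which are not independent replicates. In all 3 pairs 81 genes were called lower and 5 higher, the latter including SUCNR1, H19, PPP1R1B and MAP2, named after their values were seen.

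The size of the difference was tested between pairs. Against isoform 5 minus isoform 2, 130 genes (0.867%) differed by at least 1 with a limma adjusted p under 0.05, 26 with a higher (0.173%) and 104 with a lower value (0.693%) for isoform 4 minus isoform 1. Against isoform 6 minus isoform 3 there were 275 (1.83%), 84 higher (0.56%) and 191 lower (1.27%), or 219 in all without replicate 1 of isoform 3. ACSL5 shows the common pattern among the large falls. It was at 81.4, 81.3 and 80.9 TPM in isoform 2 and 0.588, 0.621 and 0.363 TPM in isoform 5, a difference of -5.76 that did not pass the test of a difference from -6.04 (interaction -0.28 ± 0.155, limma adjusted p = 0.26). In isoform 3 it was at 7.37, 13 and 12.7 TPM and in isoform 6 at 0.230, 0.270 and 0.271 TPM, so the fall was smaller (interaction -2.82 ± 0.155). CYP17A1 and ANPEP were likewise high in isoforms 1 and 2 and low in isoform 3, at 0.851, 2.33 and 2.54 TPM and at 0.257, 0.348 and 0.268 TPM. CLRN3 differed from this: isoform 3 had 6.06, 15.3 and 15.1 TPM against 0.223, 0.228 and 0.343 TPM in isoform 6, and the interaction of -0.57 did not pass (limma adjusted p = 0.13).

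HBE1 divided the pairs. It was at 0.959, 1.66 and 0.978 TPM in isoform 2 and 26.1, 26.7 and 27.2 TPM in isoform 5, a difference of 3.67. In isoform 3 it was at 6.75, 5.07 and 3.55 TPM and in isoform 6 at 2.46, 1.99 and 1.96 TPM, a difference of -0.93, and the gap of 4.80 ± 0.259 between this and isoform 4 minus isoform 1 was called (limma adjusted p = 5.7e-14). DHRS2 was at 4.97, 3.27 and 3.22 TPM in isoform 2 and 201, 191 and 206 TPM in isoform 5, a larger rise than in isoform 4, with an interaction of -2.29 ± 0.575. In isoform 3 it was at 55.4, 5.42 and 5.21 TPM, the high value being that of replicate 1, and in isoform 6 at 9.66, 10.2 and 10.1 TPM.

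RERG, a small GTPase of the Ras superfamily, went in opposite directions in isoform 4 minus isoform 1 and isoform 5 minus isoform 2. It was at 1.37, 1.65 and 1.34 TPM in isoform 1 and 0.199, 0.154 and 0.208 TPM in isoform 4, but at 0.0560, 0.0180 and 0.0190 TPM in isoform 2 and 7.67, 7.44 and 7.79 TPM in isoform 5. The interaction was -4.11 ± 0.139 (limma adjusted p = 2.8e-19), while the difference of -1.04 in isoform 4 itself was -0.99, and no longer called, without replicate 2 of isoform 1. KRTAP3-1, a hair keratin-associated protein, fell by 1.56 in isoform 4 and was higher by 2.16 in isoform 5. CAVIN2, a caveolar coat protein, was at 0.955, 0.905 and 1.196 TPM in isoform 1 and 1.51, 1.24 and 1.81 TPM in isoform 4, both below the parental 9.66, 8.70 and 10.8 TPM. In isoform 2 it was at 0.476, 0.391 and 0.483 TPM and in isoform 5 at 12.5, 12.8 and 15.1 TPM, so isoform 5 but not isoform 4 was near the host. IGF2BP3, an RNA-binding protein, was at 9.10, 11.0 and 10.7 TPM in isoform 1 and 0.952, 1.11 and 1.00 TPM in isoform 4, whereas isoforms 2 and 5 had 4.23, 4.42 and 3.82 TPM and 5.46, 5.49 and 5.03 TPM. Each of these lines is 1 line, so a difference between pairs cannot be told apart from a difference between lines.

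**Figure D5:**
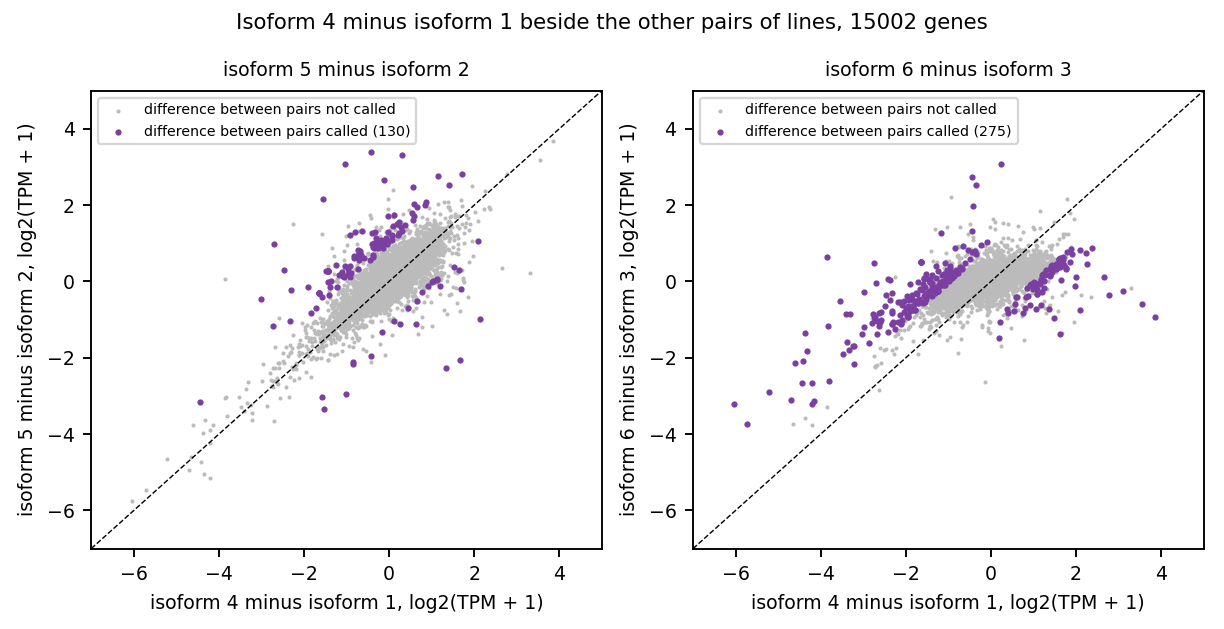
Differences of 15002 genes on the log2(TPM + 1) scale, isoform 4 minus isoform 1 on the horizontal axes and isoform 5 minus isoform 2 (left) or isoform 6 minus isoform 3 (right) on the vertical axes; the dashed line marks equality. Purple points are genes whose differences were called as unequal between pairs, 130 on the left and 275 on the right. The left cloud follows the dashed line (r = 0.79) and the right cloud is flatter (r = 0.65).

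Promoters were read for an HNF4A-type sequence because HNF4A is the factor that was varied. The letters CAAAGTCCA are a form described as specific to HNF4A. The letters CAAAGGTCA are only the last part of a direct repeat shared with other nuclear receptors, not the whole repeat. Both were searched on both strands in the 250 bases before each gene's start in the RefSeq table (GRCh38.p14). One or the other was present in 173 of all 27305 promoters (0.634%) and in 47 of 10422 promoters of tested genes (0.451%). Among genes called lower in isoform 4 it was in 7 of 272 (2.57%), among those lower by at least 2 in 5 of 64 (7.81%), and among those called higher in 1 of 156 (0.641%), STRA6. These are exact matches of letters, not binding sites, and no test was made. The 5 promoters of the genes lower by at least 2 are shown as windows of 60 bases in the direction of the gene, with the matched letters in capitals. APOBEC1 and MISP were named by rule, and PPP1R14D, VTN and GPR35 were chosen after their values were seen.
APOBEC1 (chr12:7665909-7665968, minus strand): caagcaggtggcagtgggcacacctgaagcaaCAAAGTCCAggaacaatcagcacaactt
MISP (chr19:750975-751034, plus strand): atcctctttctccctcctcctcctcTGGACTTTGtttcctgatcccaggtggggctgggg
GPR35 (chr2:240605370-240605429, plus strand): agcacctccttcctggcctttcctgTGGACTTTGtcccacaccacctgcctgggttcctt
VTN (chr17:28370371-28370430, minus strand): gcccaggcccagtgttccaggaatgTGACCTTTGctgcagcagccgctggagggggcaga
PPP1R14D (chr15:40828899-40828958, minus strand): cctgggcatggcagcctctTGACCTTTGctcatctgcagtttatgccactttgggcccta
APOBEC1 has the letters as searched, and the other 4 have them as the reverse complement. VTN, which encodes the plasma protein vitronectin, had means of 0.0288 TPM in the parental cells, 11.2 TPM in isoform 1 and 0.0374 TPM in isoform 4. GPR35, a receptor of the gut epithelium, had 1.38, 20.8 and 0.974 TPM in the same order, and PPP1R14D, a phosphatase inhibitor, had 0.469, 9.77 and 0.550 TPM. In all 3 genes isoform 4 lay near the parental mean.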

How the data were processed

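RNA-seq of poly(A)-enriched RNA from 39 HCT116 libraries (13 groups of 3) was analysed from 13 tables of 45446 rows. The authors deposited TPM per library and gene, and the submitters' processing notes name Trimmomatic 0.36, FastQC 0.11.5, kallisto 0.44.0, DESeq2 1.22.2 and GRCh38.p12. Per the file headers, the authors' comparisons with the parental cells hold log2 fold changes, their standard errors, p-values and adjusted p-values; none entered a fit. The unit is TPM and holds no counts, so depth and counting error are unknown.

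Rows were matched by order, because 29 names differ in the isoform 4 and isoform 5 tables (27 had become dates), and the 12 HNF4A rows were left out. Values were fitted as log2(TPM + 1) by limma 3.58.1 (lmFit, then eBayes with trend; R 4.3.3), with all 39 libraries, 13 group coefficients and 26 residual degrees of freedom; the median residual SD was 0.094. Testing was limited to the 15002 rows whose mean reached 1 TPM, and p-values were adjusted by Benjamini-Hochberg over all of them. Calls needed an adjusted p under 0.05 and a difference of at least 1. Among the tested rows, 77 are duplicates of another row's values, and 13480 matched 1 gene of GENCODE 29. The fit was tested on simulated data. HNF4A was compared by an exact permutation test.

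The libraries were picked by label, but which comparison to describe, its members and the 27 gene lists (669 of 674 entries matched) were chosen with earlier results of these data known. Named genes follow a rule: the 15 largest falls and 10 largest rises among called genes with separate groups; up to 4 called members of each list with the largest difference, or the 2 most abundant where none was called; the 5 largest of each test between pairs; and the 5 furthest from the parental cells in both lines. Pseudogene, clone, antisense and most short RNA names were left out. One gene called higher in all the pairs of lines is not reported here by name. Alternatives were another pseudocount, other filters, median-of-ratios scaling, no minimum difference, repeats left out, a fit of the compared libraries only, and each library left out.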

Additional observations from a re-analysis of the deposited data

Results flagged for a closer look

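The results here were picked out because the test of the difference between pairs of lines passed (limma adjusted p under 0.05 and a size of at least 1). This was so in 130 genes against isoform 5 minus isoform 2 and in 275 genes against isoform 6 minus isoform 3. Values are on the log2(TPM + 1) scale, as the isoform 4 minus isoform 1 difference less that of the other pair.

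Against isoform 5 minus isoform 2, the named genes with a more negative value for isoform 4 minus isoform 1 were RERG (-4.11), KRTAP3-1 (-3.72), the transfer RNA row TRS-GCT5-1 (-3.68), CAVIN2 (-3.00), IGF2BP3 (-2.77), OAS1 (-2.56), DHRS2 (-2.29), CHAC1 (-2.10), FCGRT (-1.57), DDIT4 (-1.35) and PRAP1 (-1.29). ICAM1 (1.35) and TRIM38 (1.03) had a more positive one. TRS-GCT5-1 was at 5.51, 5.18 and 5.79 TPM in isoform 1, was listed at 0 in all 3 isoform 4 libraries, and was at 6.29, 0 and 4.03 TPM in isoform 5.

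Against isoform 6 minus isoform 3, a more negative value for isoform 4 minus isoform 1 was found among the large falls in CYP17A1 (-3.02), ACSL5 (-2.82), ANPEP (-2.71), BAAT (-2.50), APOA1 (-2.49), SDCBP2 (-2.46), CREB3L3 (-2.34), APOBEC1 (-2.33), IL32 (-1.99), PRAP1 (-1.78), ABCG2 (-1.78), LGALS4 (-1.55), HKDC1 (-1.54), S100A14 (-1.27), CIDEB (-1.01) and VIL1 (-1). Of metabolic, junction and regulatory genes, ACAA2 (-1.46), SLC2A1 (-1.39), CLDN23 (-1.24), KLF4 (-1.05), CDKN1A (-1.04) and CD68 (-1.03) did likewise. The same direction was found in FCGRT (-3.22), TRS-GCT5-1 (-2.66), IGF2BP3 (-2.12), CHAC1 (-2.01), OAS1 (-1.63), KRTAP3-1 (-1.19) and ISG20 (-1.11). Not all of these genes fell with isoform 6: its difference was 0.07 in APOA1 (limma adjusted p = 0.768) and -0.27 in ANPEP (limma adjusted p = 0.0570).

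More positive values than in isoform 6 minus isoform 3 were found in HBE1 (4.80), OR51B5 (4.13), DHRS2 (3.36), OR51B4 (3.13), the transfer RNA row TRNF (2.09), TRIB2 (1.89), ITGB8 (1.82), ICAM1 (1.60), RANBP3L (1.5), CD24 (1.48), SOX4 (1.34), TRIM38 (1.27), IFI6 (1.02) and TNFAIP2 (1.01). Replicate 1 of isoform 3 had 55.4 TPM of DHRS2 and 3.99 TPM of ICAM1, against 5.42 and 5.21 TPM and 1.12 and 1.08 TPM in the other replicates. Without that library VIL1 moved to -0.64, CIDEB to -0.63, IFI6 to 0.80, TNFAIP2 to 0.92, CDKN1A to -0.91 and CD68 to -0.88, all under the minimum of 1. With each library left out in turn, 9 of the 44 named genes called against isoform 6 minus isoform 3 lost the call at least once, the others being TRNF (1.77 without replicate 3 of isoform 6), TRS-GCT5-1 and SULT1A3 (-3.55 without replicate 3 of isoform 1). Of the 13 called against isoform 5 minus isoform 2, TRIM38 did so, at 0.97 to 0.99, without A2N2, A4N1 or A5N2.

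SULT1A3 (-4.48) was called against isoform 6 minus isoform 3 with a wide spread: isoform 1 had 5.26, 17.6 and 72.5 TPM and isoform 4 had 1.83, 0.0120 and 0.00588 TPM. A near-identical neighbouring copy exists, so how its reads were divided between the copies is uncertain.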

How the results depend on the processing

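No paired analysis was possible for isoform 4 minus isoform 1 because the labels give the isoform 4 columns no replicate number of their own. Isoform 6 minus isoform 3 could be fitted with a replicate block and gave 105 calls, as without it. Same-numbered libraries did not deviate together (correlations of -0.07, 0.04 and 0.03). Such values cannot show whether same-numbered libraries were handled together.

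The 674 calls of isoform 4 minus isoform 1 stayed within 1.5 times under every alternative except no minimum difference, which gave 8272. That setting also gave 8086 for isoform 5 minus isoform 2, 3237 for isoform 6 minus isoform 3, 1818 and 3908 for the tests of isoform 4 minus isoform 1 against these, and 8781 and 2451 for isoforms 1 and 4 minus parental. A pseudocount of 0.1 TPM gave 179 for isoform 6 minus isoform 3, 217 for the test against isoform 5 minus isoform 2, and 1023 and 161 for isoforms 1 and 4 minus parental. A minimum mean of 5 TPM, which tests fewer genes, gave 365 for isoform 5 minus isoform 2, 52 and 138 for the tests between pairs, and 40 for isoform 4 minus parental. Apart from that filter the cause was not tested. With 1 library left out, that line keeps 2 libraries: calls ranged from 657 to 708 for isoform 4 minus isoform 1, 597 to 613 for isoform 5 minus isoform 2, 91 to 147 for isoform 6 minus isoform 3, and 111 to 133 and 219 to 290 for the tests between pairs. The HNF4A difference of 73.4 TPM was 33.2 TPM after scaling and 64.7 to 89.6 TPM with 1 library left out.

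Of 85 named genes called, 80 kept their call and direction in every alternative that tested them (18 were below the minimum of 5 TPM); FOXA1, NOTUM, AJUBA, MCM2 and RERG lost the call in at least 1, with differences of 0.93 or more in size. Of the named genes not called, BUB3, CDC20, SCD and ACTB were called with no minimum difference and SPARC with the smaller pseudocount. Differences changed sign in FDFT1, at -0.0544 after scaling and between -0.008726 (without replicate 1 of isoform 1) and 0.0530 with 1 library left out (also below 0, at -0.003881, without the library labelled A4N2), and in COL1A1, between -0.253 and 0.0532, the latter without A4N3. Depth, unknown here, limits what can be said of genes near 0 TPM.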

Other observations

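The parental HNF4A signal stood mainly in the row HNF4A12, at 27.8, 27.3 and 28.7 TPM, with 2.50 TPM on average in the row HNF4A11. Isoforms 7 to 12 start from promoter P2, by the standard nomenclature. In isoform 4 the rows HNF4A7 to HNF4A12 were listed at 0 in all 3 libraries, and in isoform 1 the highest mean among them was 0.236 TPM. The difference was not tested, and neither was the part that the quantification of near-identical transcripts has in it.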
